A study of Homo sapiens with 70 samples.

Results

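The 10 genes described here, CGA, SLC6A14, CHODL, CCR6, ATP2B2, LFNG, MYH4, MMP11, RFX6 and ZNF467, are among those with the largest falls after drug treatment of 2 liver cancer cell lines that belong to no pathway list, out of 20090 genes measured. Each was chosen by its own readout, as an extreme fall, and the rule names no table. In at least 1 of the 6 drug against DMSO tables each was among the 5 lowest log2 fold changes called at a mean of at least 2 CPM (read counts scaled to a common library total), which is taken here as the choice. Falls in these tables are a description with no test, and because the choice may have drawn on any table, values in the other line are not independent evidence of a fall. By this reading CGA and MMP11 were chosen in both lines, SLC6A14, CHODL, RFX6 and ZNF467 in Hep3B only, and CCR6, ATP2B2, LFNG and MYH4 in Huh7 only.

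The libraries hold poly-A RNA of Hep3B and Huh7 cells, 2 established human hepatocellular carcinoma lines, taken 24 h after treatment. The groups of each line were 5 µM GW3965, 2 µM sorafenib, both drugs at these doses, and the vehicle DMSO. GW3965 activates the liver X receptors, nuclear receptors that sense oxysterols, and sorafenib inhibits RAF and several receptor tyrosine kinases. Hep3B had 9 libraries in every group, and Huh7 had 8 labelled GW3965, 9 labelled sorafenib, 9 with both drugs and 8 with DMSO. The labels do not state whether a group's libraries are from separate cultures, so p-values may measure only technical spread, and the depth of each library is unknown.

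These genes have little in common by function. CGA encodes the alpha subunit shared by the pituitary and placental glycoprotein hormones, and many tumours secrete it outside those tissues. CCR6 is the receptor for the chemokine CCL20. SLC6A14 imports neutral and cationic amino acids with sodium and chloride, and ATP2B2 is a plasma membrane pump that drives calcium out of the cell. CHODL is a transmembrane lectin, and LFNG (lunatic fringe) is a glycosyltransferase that tunes Notch receptors for their ligands. MYH4 is a myosin heavy chain of fast skeletal muscle, and MMP11 is a secreted protease of the matrix metalloproteinase family. RFX6 and ZNF467 are transcription factors, RFX6 being needed for the formation of pancreatic islet cells. ERK signalling, which lies downstream of RAF, is known to drive transcription through AP-1 and serum response factor. Liver X receptors bind direct repeats of AGGTCA spaced by 4 bases, as partners of the retinoid X receptor.

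The start regions of CGA, SLC6A14 and MMP11 are printed here as examples. CGA and SLC6A14 were called lower in the same 4 groups, as were CCR6, ATP2B2 and LFNG, whose regions are not printed. MMP11 was also lower in the other 2 groups and higher in 2 of the 4. The sequences come from RefSeq on GRCh38.p14, which is not the build of the deposited files, and run from 250 bases before to 50 bases after the annotated start. The CGA region is chr6:87095057-87095356 on the minus strand, SLC6A14 is chrX:116436356-116436655 on the plus strand, and MMP11 is chr22:23772599-23772898 on the plus strand. Capitals mark matches to the cAMP response element TGACGTCA, the AP-1 motif TGANTCA and the TATA box TATAAA, searched on both strands.
CGA: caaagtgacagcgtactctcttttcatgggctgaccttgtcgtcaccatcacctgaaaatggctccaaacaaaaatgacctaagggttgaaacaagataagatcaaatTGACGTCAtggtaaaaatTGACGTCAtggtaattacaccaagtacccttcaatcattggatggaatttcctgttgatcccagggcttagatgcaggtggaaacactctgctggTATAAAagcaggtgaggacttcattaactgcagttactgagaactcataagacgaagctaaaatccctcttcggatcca
SLC6A14: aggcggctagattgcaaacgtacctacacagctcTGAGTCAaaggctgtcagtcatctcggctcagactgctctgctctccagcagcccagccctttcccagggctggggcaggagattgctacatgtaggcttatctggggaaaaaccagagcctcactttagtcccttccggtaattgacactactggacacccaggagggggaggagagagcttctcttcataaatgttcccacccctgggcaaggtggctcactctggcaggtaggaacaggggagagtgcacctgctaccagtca
MMP11: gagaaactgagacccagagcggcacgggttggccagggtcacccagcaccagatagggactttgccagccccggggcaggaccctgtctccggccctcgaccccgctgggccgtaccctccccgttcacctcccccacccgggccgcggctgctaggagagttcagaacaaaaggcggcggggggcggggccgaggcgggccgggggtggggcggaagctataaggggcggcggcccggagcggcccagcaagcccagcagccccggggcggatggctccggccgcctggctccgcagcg

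The CGA region held the cAMP response element at bases -142 to -135 and again at -124 to -117 from the start, and TATAAA at -29 to -24. This pair of elements is a textbook feature of the human CGA promoter. Of 35116 promoter regions of the same length, 1.85% held TGACGTCA at least once and 0.0598%, 21 regions, held it 2 or more times. SLC6A14 held an AP-1 match, TGAGTCA, at -216 to -210, against 7.71% of all regions with TGANTCA. MMP11 held none of the motifs searched, in a region of 74.3% G and C, where the median region had 58.7% and CGA had 42.3%. Among 16 regions found for 9 of the 10 genes, 1 held the cAMP response element and 1 an AP-1 match, those of CGA and SLC6A14. The regions of CCR6, ATP2B2 and LFNG, which were lower in the same 4 groups, thus held neither. MYH4 on chromosome 17 held TATAAA at -213 to -208 and at -31 to -26. This motif was present at least once in 11.5% of all regions and 2 or more times in 2.36%. No region of a member held the E-box CACGTG, which occurred in 7.26% of all regions. The serum response element, in the form searched, and direct repeats of AGGTCA spaced by 1, 2, 4 or 5 bases were also absent. That element occurred in 0.0342% of all regions, and the repeats in 0.0228%, 0.00285%, 0.0199% and 0.0057% for these spacings. At such shares, their absence from 16 regions cannot tell whether the members have sites for the factors that bind them. The other genes lie on chromosome 21 (CHODL), 6 (CCR6), 3 (ATP2B2) and 7 (LFNG and ZNF467), and a start region of RFX6 was not used. For CGA, LFNG and ZNF467 no region was matched within 50 bases to the start of the transcript whose fold changes are given.

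The values come from tables of the authors' own edgeR comparisons, which list a log2 fold change of drug over DMSO, a mean log2 CPM, a p-value and an FDR. A gene is called here when the authors' deposited table gives an FDR under 0.05. Group levels in CPM are implied by the mean and the fold change, and approximate standard errors are the fold change over the normal score of its p-value. In Huh7 the single-drug groups go against their labels. ABCG1, the cholesterol exporter induced by liver X receptors, had log2 fold changes of 5.99 with GW3965, 0.59 with sorafenib and 6.46 with both drugs in the authors' deposited tables for Hep3B. In those for Huh7 it had 0.75 in the group labelled GW3965, 3.82 in the group labelled sorafenib and 4.37 with both drugs. DUSP6, a feedback phosphatase whose transcript follows ERK activity, stood at 0.33, -2.40 and -2.55 for the same 3 Hep3B groups in the authors' deposited tables. Its Huh7 values were -1.70 labelled GW3965, -0.02 labelled sorafenib and -1.68 with both drugs, per the authors' deposited tables. Huh7 single-drug groups are therefore called by their labels throughout, and the count of calls over the other line and the nearest genes are also given without them. Counts of calls in gene lists leave out the 10 members. They stand beside the shares of all genes called in the authors' deposited tables, which with both drugs were 26.0% higher and 23.6% lower in Hep3B, and 24.3% higher and 17.3% lower in Huh7. With sorafenib in Hep3B these shares were 17.3% higher and 17.4% lower in the authors' deposited table. Undetected genes, at the lowest mean of a table (its floor), share 1 log2 fold change there. With both drugs it was -0.20 in Hep3B and 0.19 in Huh7, and with sorafenib in Hep3B it was 0.09, also the median over all genes. A list of mostly scarce genes has its median at or near such a value, which is then not a response of the list.

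**Figure D1:**
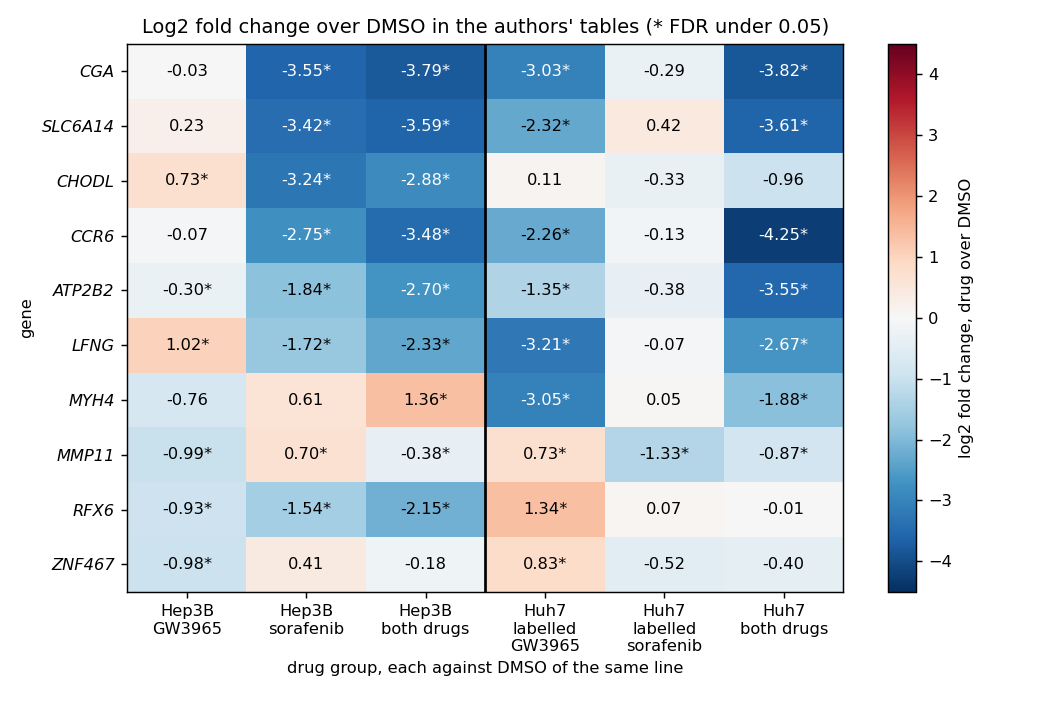
Log2 fold change of drug over DMSO for the 10 genes (rows) in the 6 drug groups (columns; Hep3B left of the line, Huh7 right), from the authors' deposited tables; colour and number give the value and an asterisk an FDR under 0.05. CGA, SLC6A14, CCR6, ATP2B2 and LFNG are blue in the same 4 columns, while MMP11 has a different order of columns.

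The hormone subunit CGA had the lowest log2 fold change of all genes with sorafenib in Hep3B, -3.55 in the authors' deposited table, which is a value that chose it. Its implied level was 0.811 CPM with sorafenib and 0.652 CPM with both drugs, against 9.51 and 9.01 CPM in DMSO in the same tables. With GW3965 alone the implied level was 8.60 CPM, against 8.75 CPM in DMSO, and the gene was not called (log2 fold change -0.03 in the authors' deposited table). The hormone gene thus stood near its DMSO level with GW3965 and at 8.52% of it with sorafenib.
In Huh7 its implied levels were 0.446 CPM in the group labelled GW3965, 3.11 CPM in that labelled sorafenib and 0.277 CPM with both drugs, against 3.65, 3.80 and 3.90 CPM in DMSO. The corresponding log2 fold changes in the authors' deposited tables were -3.03, -0.29 and -3.82, the second not called. The level with both drugs lay near 0.198 CPM, the lowest mean listed for that comparison, so the floor bounds the size of that fall. Both lines chose CGA, so no independent test of its fall exists here. Of the other 8 measured glycoprotein hormone subunits and receptors, 0 were called and 0 reached 2 CPM in any of the authors' deposited tables. These 8 genes had medians (log2 fold change) of -0.20 with both drugs in Hep3B and 0.32 with both drugs in Huh7, per the authors' deposited tables, against -0.06 and 0.16 over all genes.

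The cAMP and CREB responsive genes, listed because of the elements in the CGA start region, went in both directions. Of 16 measured besides CGA, 10 (62.5%) rose and 3 (18.8%) fell with both drugs in Hep3B, and 6 (37.5%) rose and 2 (12.5%) fell with both drugs in Huh7, in the authors' deposited tables. Their medians were 0.77 and 0.26 for these groups, against -0.06 and 0.16 over all genes. NR4A2, an orphan nuclear receptor, fell, with log2 fold changes of -1.40 with both drugs in Hep3B and -2.49 with both drugs in Huh7 in the authors' deposited tables. PDE4B fell by -1.72 and -1.56 in the same tables, and FOS by -0.87 with both drugs in Hep3B. The phosphatase gene DUSP1 rose, with 2.20 and 1.75 in the same tables, and the neurotrophin gene BDNF rose, with 2.20 and 2.04, per the authors' deposited tables. PPARGC1A, a coactivator of gluconeogenic genes, rose by 1.29 and 1.60 in the same deposited tables of the authors.

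CCR6 was chosen in Huh7, where it had the lowest log2 fold change of all genes with both drugs, -4.25 in the authors' deposited table. Its implied levels in Huh7 were 4.35 CPM labelled GW3965, 19.7 CPM labelled sorafenib and 1.12 CPM with both drugs, against 20.8, 21.5 and 21.3 CPM in DMSO. In Hep3B the authors' deposited tables give -2.75 with sorafenib (approximate SE 0.230) and -3.48 with both drugs (approximate SE 0.231), both called, which were the 7th and 13th lowest values of all genes. With GW3965 alone it was not called in Hep3B (log2 fold change -0.07, edgeR FDR 1 in the authors' deposited table). In level, the receptor stood at 2.66 CPM with GW3965, 0.462 CPM with sorafenib and 0.261 CPM with both drugs in Hep3B, against 2.78, 3.11 and 2.90 CPM in DMSO. The level with both drugs was close to 0.197 CPM, the lowest mean listed in that table, so the size of the fall is bounded by the floor of the measurement.

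The ligand CCL20 moved with its receptor in both lines. Its implied level was 41.5 CPM with GW3965, 4.81 CPM with sorafenib and 1.75 CPM with both drugs in Hep3B, against 26.3, 28.1 and 27.3 CPM in DMSO. In Huh7 it was 11.3 CPM labelled GW3965, 48.7 CPM labelled sorafenib and 5.31 CPM with both drugs, against 51.0, 52.6 and 51.6 CPM in DMSO. CCL20 rose with GW3965 in Hep3B (log2 fold change 0.66 in the authors' deposited table), whereas CCR6 was not called there, and the difference between them was not tested. Of 20 measured genes of the list of CCL20 and the other chemokine receptors, 1 rose and 2 fell in Hep3B with both drugs, and 3 rose and 2 fell in Huh7 with both drugs, per the authors' deposited tables. The list medians, -0.20 and 0.19, stood beside -0.06 and 0.16 over all genes in the authors' deposited tables, and at most 2 of the 20 reached 2 CPM. CXCR4, a chemokine receptor of leukocytes and many tumours, fell in Hep3B with log2 fold changes of -1.52 with sorafenib and -2.33 with both drugs in the authors' deposited tables. ACKR3 (listed as CXCR7), a scavenging receptor, rose by 2.50 with both drugs in Hep3B and by 1.74 in Huh7, in the same deposited tables of the authors.

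The amino acid transporter gene SLC6A14 was chosen by its fall with sorafenib in Hep3B. Its implied level there was 2.71 CPM with sorafenib and 2.33 CPM with both drugs, against 29.0 and 28.2 CPM in DMSO. With GW3965 alone it had 31.8 CPM, against 27.1 CPM in DMSO, and was not called. In Huh7 with both drugs its log2 fold change was -3.61 in the authors' deposited table (approximate SE 0.238), the 4th lowest of all genes, at a mean of 1.60 CPM. In the Huh7 group labelled GW3965 it was -2.32 (approximate SE 0.198), the 9th lowest in the authors' deposited table. Both Huh7 values were called and are extreme falls themselves, so they are given without a test. In the group labelled sorafenib it was not called (0.42, approximate SE 0.144, edgeR FDR 0.110 in the authors' deposited table). Implied Huh7 levels were 0.585 CPM labelled GW3965, 3.91 CPM labelled sorafenib and 0.254 CPM with both drugs, against 2.92, 2.91 and 3.11 CPM in DMSO. SLC6A14 thus had a lower DMSO level in Huh7 than in Hep3B, and its Huh7 level with both drugs lay near the lowest mean of that table, 0.198 CPM.

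Other transporters of the family went in both directions. Of 15 measured SLC6 and related amino acid transporters besides SLC6A14, 3 rose and 4 fell with sorafenib in Hep3B, 3 rose and 4 fell with both drugs in Hep3B, and 2 rose and 4 fell with both drugs in Huh7, in the authors' deposited tables. Their medians were 0.09, 0.04 and 0.19 in these groups, against 0.09, -0.06 and 0.16 over all genes. SLC6A6, the taurine transporter, fell by log2 fold changes of -2.54 and -2.22 with sorafenib and with both drugs in Hep3B, and of -1.27 with both drugs in Huh7, in the authors' deposited tables. SLC6A19, the neutral amino acid transporter of kidney and gut, fell by -2.75 and -2.89 with sorafenib and with both drugs in Hep3B, and by -1.18 with both drugs in Huh7, in the authors' deposited tables. SLC6A9, a glycine transporter, rose in all 6 of the authors' deposited tables, by 3.13 with sorafenib and 3.25 with both drugs in Hep3B and 1.97 with both drugs in Huh7.

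The calcium pump gene ATP2B2 was chosen by its fall with both drugs in Huh7 and was also called lower in all 3 Hep3B tables. Its Hep3B log2 fold changes were -0.30 with GW3965 (approximate SE 0.0902, edgeR FDR 0.0146), -1.84 with sorafenib (approximate SE 0.169, edgeR FDR 8.80e-26) and -2.70 with both drugs (approximate SE 0.146, edgeR FDR 9.02e-74) in the authors' deposited tables. In level this was 21.7 CPM with GW3965, 7.98 CPM with sorafenib and 4.33 CPM with both drugs, against 26.8, 28.6 and 28.1 CPM in DMSO. The level with both drugs lay below that with sorafenib alone.
In Huh7 its implied level was 15.6 CPM labelled GW3965, 31.3 CPM labelled sorafenib and 3.42 CPM with both drugs, against 39.9, 40.9 and 40.0 CPM in DMSO. ATP2B2 had 2 transcripts in the authors' deposited tables, whose log2 fold changes lay within 0.00767 of each other. Among 12 other measured calcium pumps and exchangers, 2 rose and 4 fell with sorafenib in Hep3B, 2 rose and 4 fell with both drugs in Hep3B, and 3 rose and 2 fell with both drugs in Huh7, in the authors' deposited tables. Their medians of 0.09, -0.07 and 0.17 in these groups stood beside 0.09, -0.06 and 0.16 over all genes. The broadly expressed paralog ATP2B1 fell far less in Hep3B, by -0.20 with GW3965, -0.40 with sorafenib and -0.63 with both drugs in the authors' deposited tables, and was not called in Huh7. ATP2B4, another plasma membrane pump, rose in all 3 Huh7 groups of the authors' deposited tables, by 0.82 labelled GW3965, 0.76 labelled sorafenib and 1.29 with both drugs. The pump of the endoplasmic reticulum ATP2A3 rose with both drugs, by 2.21 in Hep3B and 1.72 in Huh7, in the authors' deposited tables.

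CHODL was chosen in Hep3B, where its implied level was 2.10 CPM with sorafenib and 2.62 CPM with both drugs, against 19.9 and 19.2 CPM in DMSO. With GW3965 alone it rose, to 30.7 CPM, against 18.6 CPM in DMSO (log2 fold change 0.73 in the authors' deposited table). CHODL is thus a gene that stood higher with the agonist and far lower with the kinase inhibitor in the same line. In Huh7 it was barely detectable, at 0.325 CPM labelled GW3965, 0.263 CPM labelled sorafenib and 0.183 CPM with both drugs, against 0.302, 0.331 and 0.355 CPM in DMSO. None of the 3 Huh7 comparisons of CHODL was called in the authors' deposited tables, and with both drugs the log2 fold change was -0.96 (approximate SE 0.510, edgeR FDR 0.120). A fall of the size seen in Hep3B was not detectable in Huh7 at this level. Of 5 other measured lectins of the CHODL list, 0 were called in Hep3B with both drugs, while 1 rose and 2 fell in Huh7 with both drugs in the authors' deposited tables. Their medians were -0.08 and 0.04 there, against -0.06 and 0.16 over all genes. CD248 (endosialin), found on pericytes, fell by -2.51 with both drugs in Huh7 in the authors' deposited table.

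The fringe gene LFNG was chosen in Huh7 and had opposite responses to the single drugs in Hep3B. With GW3965 it rose by a log2 fold change of 1.02 in the authors' deposited table (approximate SE 0.119, edgeR FDR 1.07e-15). With sorafenib it fell by -1.72 (approximate SE 0.213, edgeR FDR 2.08e-14), and with both drugs by -2.33 (approximate SE 0.192, edgeR FDR 1.37e-32), in the authors' deposited tables. Implied levels in Hep3B were 7.15 CPM with GW3965, 1.18 CPM with sorafenib and 0.733 CPM with both drugs, against 3.52, 3.87 and 3.69 CPM in DMSO. The rise with the agonist alone was therefore not seen when sorafenib was added. In Huh7 LFNG had 1.63 CPM labelled GW3965, 15.0 CPM labelled sorafenib and 2.44 CPM with both drugs, against 15.1, 15.7 and 15.6 CPM in DMSO. Its 4 transcripts in the authors' deposited tables differed by at most 0.36 in log2 fold change, in Hep3B with both drugs.

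The other genes of the Notch pathway went in both directions. Of 35 measured besides LFNG, 8 (22.9%) rose and 6 (17.1%) fell with sorafenib in Hep3B, and 13 (37.1%) rose and 10 (28.6%) fell with both drugs, in the authors' deposited tables. In Huh7 with both drugs 10 (28.6%) rose and 3 (8.57%) fell in the authors' deposited table. With GW3965 in Hep3B 2 (5.71%) rose and 0 fell, beside 4.51% and 2.28% of all genes. In the Huh7 group labelled GW3965, 6 (17.1%) rose and 3 (8.57%) fell, beside 9.13% and 11.3%. In the group labelled sorafenib, 1 (2.86%) rose and 0 fell, beside 1.25% and 0.796%, in the authors' deposited tables. Their medians were 0.01 in Hep3B and 0.15 in Huh7 with both drugs, against -0.06 and 0.16 over all genes. Of the other fringes, RFNG rose with both drugs, by 0.42 in Hep3B and 0.76 in Huh7 in the authors' deposited tables, and MFNG, at a mean of 0.770 CPM, fell by -0.66 in Hep3B. The ligand DLL4 rose by 0.81 and 1.42 with both drugs in Hep3B and Huh7, and the receptor NOTCH2 by 0.83 and 0.78, in the authors' deposited tables. The target gene HES4 rose by 0.90 and 1.62 in the same tables of the authors' deposit.

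The muscle myosin MYH4 was chosen in Huh7 and was scarce in Hep3B. Its implied Huh7 levels were 0.452 CPM labelled GW3965, 3.97 CPM labelled sorafenib and 1.07 CPM with both drugs, against 3.75, 3.84 and 3.91 CPM in DMSO. In Hep3B it had 0.182 CPM with GW3965, 0.419 CPM with sorafenib and 0.617 CPM with both drugs, against 0.309, 0.275 and 0.240 CPM in DMSO. It was called higher there with both drugs (log2 fold change 1.36, approximate SE 0.368, edgeR FDR 5.45e-04 in the authors' deposited table), at levels of less than 1 CPM. As for LFNG, its Huh7 level with both drugs lay above that labelled GW3965. MYH4 has near-identical paralogs among the muscle myosins, and the sources used here do not give how reads were shared between them. Of 13 other measured myosin heavy chains, 0 rose and 3 fell with both drugs in Hep3B and 1 rose and 2 fell with both drugs in Huh7, in the authors' deposited tables, with medians of -0.20 and 0.16 against -0.06 and 0.16 over all genes. In each of these groups 4 of the 13 reached 2 CPM, and the medians are values of genes at or near the floor. The neighbouring paralogs MYH1, MYH2 and MYH8 were not called in any of the 3 Huh7 groups of the authors' deposited tables. Their means there were 0.183 to 0.216 CPM, at or near the floor, so a fall could not have been seen. The non-muscle chain MYH10 fell by -1.01 with both drugs in Hep3B and by -0.30 in Huh7, and MYH9 rose by 0.99 in Huh7, in the authors' deposited tables.

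MMP11 was chosen in both lines, by GW3965 in Hep3B and by the group labelled sorafenib in Huh7. Its implied levels in Hep3B were 12.3 CPM with GW3965, 41.9 CPM with sorafenib and 19.9 CPM with both drugs, against 24.4, 25.8 and 25.8 CPM in DMSO. In Huh7 they were 32.6 CPM labelled GW3965, 7.89 CPM labelled sorafenib and 10.3 CPM with both drugs, against 19.6, 19.9 and 18.8 CPM in DMSO. In each line the gene stood below DMSO in 1 single-drug group and above it in the other, with both drugs in between and below DMSO. The log2 fold changes in the authors' deposited tables were -0.99, 0.70 and -0.38 in Hep3B and 0.73, -1.33 and -0.87 in Huh7, in the order labelled GW3965, labelled sorafenib and both drugs, and all 6 were called. By label the 2 lines thus disagreed on which drug lowered MMP11, in the same groups whose labels ABCG1 and DUSP6 go against.
Of 24 other measured matrix metalloproteinases and inhibitors, 3 rose and 5 fell with both drugs in Hep3B, and 5 rose and 2 fell with both drugs in Huh7, in the authors' deposited tables, with medians of -0.20 and 0.19 against -0.06 and 0.16 over all genes. In each of these groups 8 of the 24 reached 2 CPM, and the medians are the values of genes at the floor. The inhibitor TIMP4 rose with both drugs by 1.93 in Hep3B and 1.38 in Huh7, and TIMP3 by 0.97 and 0.86, in the authors' deposited tables. The membrane protease MMP16 fell by -1.30 and -0.76 in the same 2 groups of the authors' deposited tables.

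MMP11 is known as a retinoic acid responsive gene, so receptors and targets of retinoic acid were set beside it. The receptor gene RARB, itself a target, had log2 fold changes of -1.05 with GW3965, -0.18 with sorafenib and -0.52 with both drugs in the authors' deposited tables for Hep3B, the second not called. In Huh7 it had 0.78 labelled GW3965, -0.47 labelled sorafenib and 0.73 with both drugs, the second again not called, in the authors' deposited tables. RARB and MMP11 thus had the same sign with GW3965 and with both drugs in Hep3B and in both single-drug groups of Huh7, and opposite signs with sorafenib in Hep3B and with both drugs in Huh7. Of the 15 genes measured, 1 rose and 3 fell with GW3965 in Hep3B, beside 4.51% and 2.28% of all genes. With sorafenib in Hep3B 7 rose and 2 fell, in the authors' deposited tables. In the Huh7 group labelled GW3965, 8 (53.3%) rose and 1 (6.67%) fell, beside 9.13% and 11.3% of all genes. The list median there was 0.46, against -0.07 over all genes. In the group labelled sorafenib 0 rose and 0 fell, in the authors' deposited tables. With both drugs, 7 rose and 6 fell in Hep3B and 4 rose and 3 fell in Huh7, with list medians of 0.41 and 0.49 against -0.06 and 0.16 over all genes in the authors' deposited tables. CYP26A1, which degrades retinoic acid, rose by 3.18 in the Huh7 group labelled GW3965 in the authors' deposited table, at a mean of 0.652 CPM.

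RFX6 was chosen by its fall with GW3965 in Hep3B, and its lowest values there came with both drugs. Its implied levels were 2.95 CPM with GW3965, 2.09 CPM with sorafenib and 1.32 CPM with both drugs, against 5.62, 6.09 and 5.86 CPM in DMSO. The 2 drugs thus each went with a lower level in this line. In Huh7, RFX6 rose in the group labelled GW3965, by a log2 fold change of 1.34 in the authors' deposited table (approximate SE 0.331, edgeR FDR 6.97e-04). It was not called labelled sorafenib (0.07, edgeR FDR 1) or with both drugs (-0.01, edgeR FDR 1) in the authors' deposited tables. Huh7 levels were 2.61 CPM labelled GW3965, 1.12 CPM labelled sorafenib and 1.04 CPM with both drugs, against 1.03, 1.07 and 1.04 CPM in DMSO. Among 16 other measured RFX and endocrine transcription factors, 4 rose and 4 fell with both drugs in Hep3B, and 2 rose and 1 fell in Huh7, in the authors' deposited tables, with medians of -0.09 and 0.10 against -0.06 and 0.16 over all genes. RFX5, which activates the class II histocompatibility genes, fell by -1.34 with both drugs in Hep3B in the authors' deposited table, and the ciliary factor RFX2 by -1.23. RFX3, also a ciliary factor, rose by 1.29 in that deposited table of the authors.

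The zinc finger factor ZNF467, known in mouse for favouring adipocytes over osteoblasts, was the scarcest member by DMSO level among those chosen in Hep3B. Its implied levels in Hep3B were 1.35 CPM with GW3965, 3.71 CPM with sorafenib and 2.47 CPM with both drugs, against 2.67, 2.80 and 2.79 CPM in DMSO. Sorafenib and both drugs were not called (log2 fold changes 0.41 and -0.18 in the authors' deposited tables). In Huh7, ZNF467 rose in the group labelled GW3965 (0.83, approximate SE 0.278, edgeR FDR 0.0184 in the authors' deposited table). It was not called labelled sorafenib (-0.52, approximate SE 0.263, edgeR FDR 0.501) or with both drugs (-0.40, approximate SE 0.285, edgeR FDR 0.277) in the authors' deposited tables. Its Huh7 levels were 1.72 CPM labelled GW3965, 0.716 CPM labelled sorafenib and 0.748 CPM with both drugs, against 0.967, 1.03 and 0.990 CPM in DMSO.

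**Figure D2:**
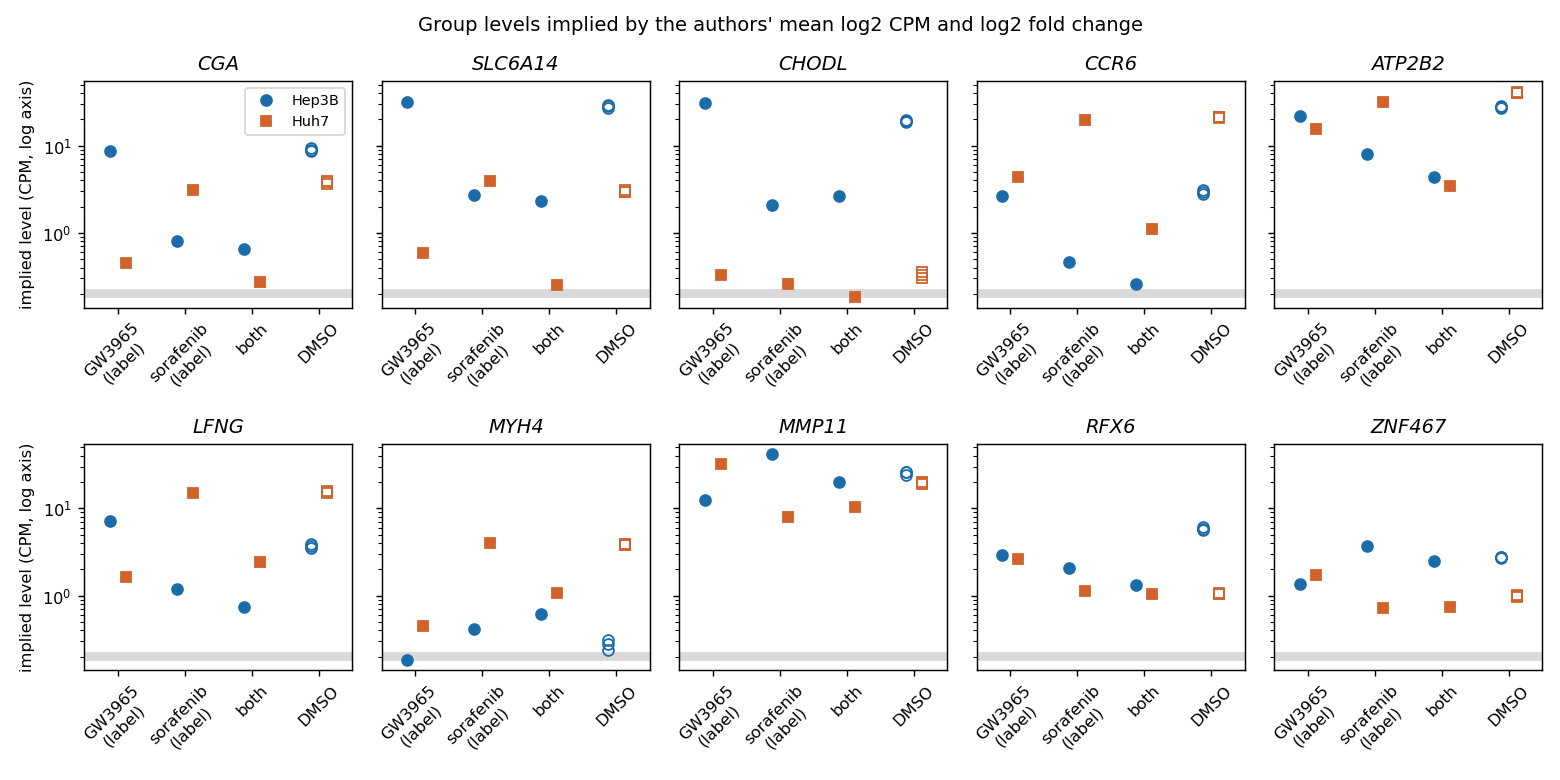
Group levels of each gene in CPM (log axis) implied by the authors' deposited mean and fold change, with drug groups left of DMSO, circles for Hep3B and squares for Huh7; open symbols are the DMSO level from each of 3 tables and the grey band spans the lowest means listed, 0.183 to 0.221 CPM. CHODL in Huh7 and MYH4 in Hep3B lie below 1 CPM in every group.

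Counted over the 10 genes, the calls were unevenly spread over the groups, and these counts are fixed in part by how the genes were chosen. With GW3965 in Hep3B, 4 were called lower and 2 higher in the authors' deposited table, where 2.28% and 4.51% of all 20090 genes were. With sorafenib in Hep3B, 7 were lower and 1 higher, where 17.4% and 17.3% of all genes were, and with both drugs 8 were lower and 1 higher, where 23.6% and 26.0% were, in the authors' deposited tables. In Huh7 the group labelled GW3965 had 6 lower and 3 higher, beside 11.3% and 9.13% of all genes, and the group labelled sorafenib had 1 lower and 0 higher, beside 0.796% and 1.25%, in the authors' deposited tables. With both drugs in Huh7, 7 were lower and 0 higher, beside 17.3% and 24.3% of all genes in the authors' deposited table. The median log2 fold change of the 10 genes was -2.51 in Hep3B and -2.27 in Huh7 with both drugs, against -0.06 and 0.16 over all genes in the authors' deposited tables. It was -0.19 with GW3965 in Hep3B and -0.21 labelled sorafenib in Huh7, against -0.02 and 0.01, and -1.78 with sorafenib in Hep3B and -1.80 labelled GW3965 in Huh7, against 0.09 and -0.07. By label, the lower single-drug median thus stood with sorafenib in Hep3B and with GW3965 in Huh7. Of the 10 genes, between 5 and 9 reached a mean of 2 CPM in a table, and the other members are included in every count.

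**Figure D3:**
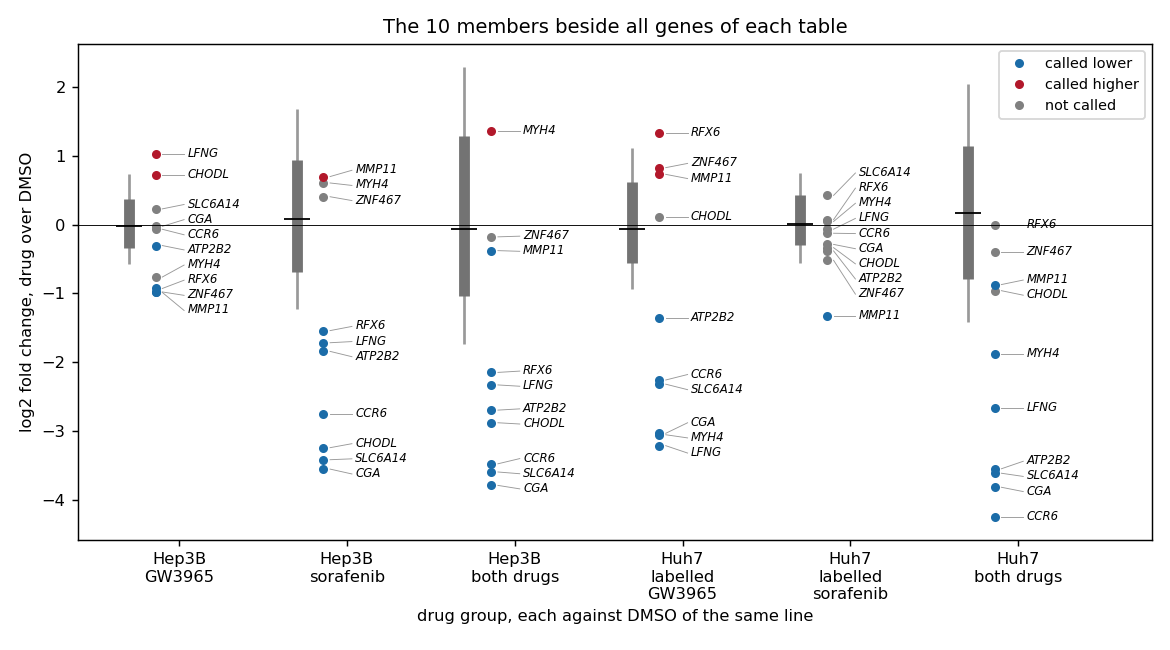
Log2 fold changes of the 10 genes (points, coloured by call) beside those of all 20090 genes in each of the authors' deposited tables; the thick bar spans the 5th to 95th percentile, the thin bar the 1st to 99th, and the dash is the median. With both drugs in Hep3B, 7 of the 10 genes lie below the 1st percentile, -1.73, and MYH4 lies above 0.

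The 8 genes chosen in a single line gave 24 comparisons in the other line. Of these, 9 were called lower, 4 higher and 11 not called in the authors' deposited tables, where the shares of all genes ran from 0.796% to 23.6% lower and from 1.25% to 26.0% higher. The stated rule may have drawn on these tables too, so the count is a description. The lower calls were 2 for SLC6A14, 2 for CCR6, 3 for ATP2B2 and 2 for LFNG, and the higher ones were 1 each for LFNG, MYH4, RFX6 and ZNF467. Without the Huh7 single-drug tables, 8 lower and 2 higher calls were left. SLC6A14, CCR6, ATP2B2 and LFNG thus fell with both drugs in that other line, and CHODL, MYH4, RFX6 and ZNF467 were not called lower there. CHODL and MYH4 were under 1 CPM in that line, while RFX6 and ZNF467 stood at about 1 CPM. Tables of a line share their DMSO libraries, so the 3 comparisons of a gene are not independent of each other.

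**Figure D4:**
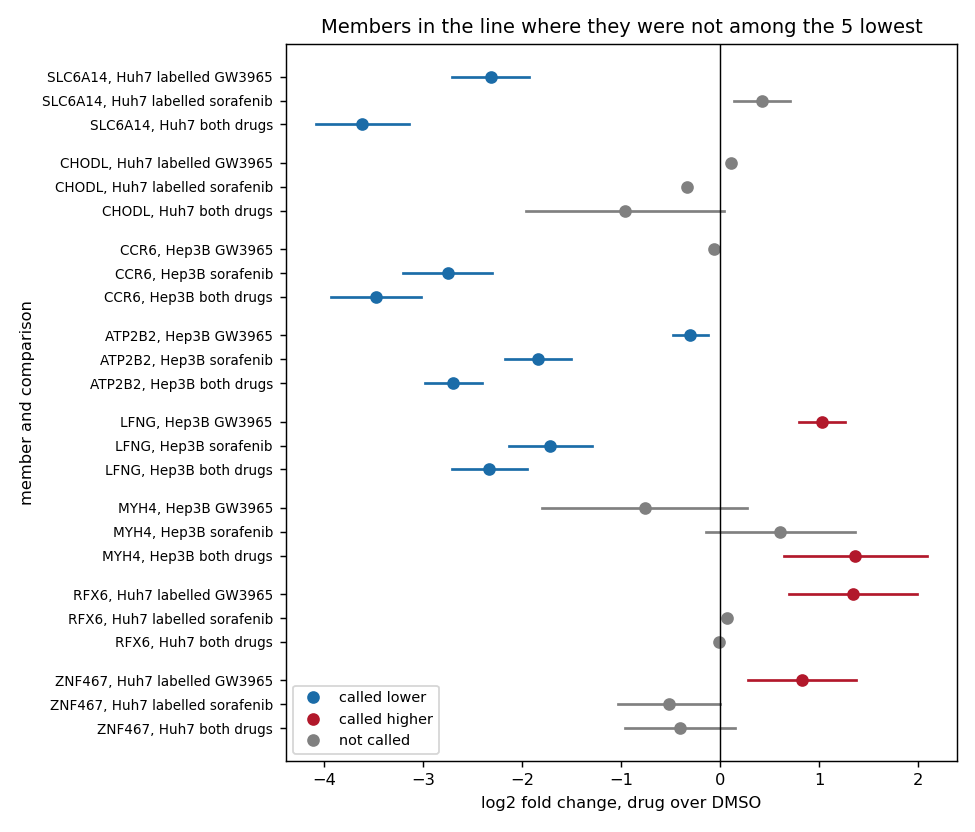
Log2 fold change of drug over DMSO with approximate 95% intervals for the 8 genes in the line where they were not among the 5 lowest values, coloured by the authors' deposited FDR; no interval is drawn where the p-value exceeded 0.5. SLC6A14, CCR6, ATP2B2 and LFNG lie below -2 with both drugs, and MYH4, RFX6 and ZNF467 have 1 called value each, all above 0.

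The values with both drugs were also set beside the sum of the 2 single-drug values, as a description, since all 3 share DMSO libraries. LFNG in Hep3B had -2.33 with both drugs, and its single values, of opposite sign, summed to -0.69, from the authors' deposited tables. CCR6 in Huh7 had -4.25 with both drugs, against a sum of -2.38, and ATP2B2 in Huh7 had -3.55 against -1.73, from the authors' deposited tables. SLC6A14 in Huh7 had -3.61 against a sum of -1.89. For CGA the values were closer, at -3.79 against -3.58 in Hep3B and -3.82 against -3.32 in Huh7, from the authors' deposited tables. The CGA level with both drugs in Huh7, 0.277 CPM, lay near the floor of 0.198 CPM, which limits any further fall. In Huh7 MYH4 and LFNG went the other way, with -1.88 against -3.01 and -2.67 against -3.28, and MYH4 in Hep3B, under 1 CPM, had 1.36 against -0.16, from the authors' deposited tables. Among scarce genes of Huh7, RFX6 had -0.01 with both drugs against a sum of 1.41. There CHODL had -0.96 against -0.23, and ZNF467 had -0.40 against 0.31. The remaining genes and lines are not listed here. The values of CCR6 and ATP2B2 with both drugs in Huh7 are those that chose these genes. The sums of CCR6, LFNG and MYH4 in Huh7, and of CGA in both lines, hold a single-drug value that chose the gene. These differences are therefore fixed in part by the choice.

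The 10 genes differed widely in how much the 2 lines held under DMSO. CHODL had an implied 0.331 CPM in Huh7 and 19.2 CPM in Hep3B, and SLC6A14 had 2.92 CPM in Huh7 and 28.2 CPM in Hep3B. In the other direction, CCR6 had 21.3 CPM in Huh7 and 2.90 CPM in Hep3B, MYH4 had 3.84 CPM in Huh7 and 0.275 CPM in Hep3B, and LFNG had 15.6 CPM in Huh7 and 3.69 CPM in Hep3B. ATP2B2 and MMP11 were the closest between lines, with 40.0 CPM in Huh7 and 28.1 CPM in Hep3B for ATP2B2, and 19.6 CPM in Huh7 and 25.8 CPM in Hep3B for MMP11. Levels between lines were not tested, because the authors' deposited tables compare drugs within a line only. Per kilobase of transcript, the DMSO level in Hep3B ran from 11.3 CPM per kb for MMP11, 8.92 for CGA, 7.55 for CHODL and 6.23 for SLC6A14 down to 0.0458 for MYH4. In Huh7 it ran from 8.56 CPM per kb for MMP11, 6.55 for LFNG and 5.30 for CCR6 down to 0.130 for CHODL. The 3 tables of a line gave the same DMSO level within 0.37 on the log2 scale for every member.

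Genes with the most similar responses were found by the Euclidean distance over the 6 log2 fold changes, among 10614 genes at 2 CPM or more in every table. Only 3 of the 10 members were among these genes. The others, CGA, SLC6A14 and CCR6 included, could not be returned as neighbours, so a member may lie closer to another member than to the gene named. CCL20 was nearest to CGA (distance 1.60), SLC6A14 (1.22) and CCR6 (1.33), and the immediate early gene EGR1 was the second for CGA (1.84), SLC6A14 (1.65) and LFNG (1.67). LFNG was nearest to LYZ, the lysozyme gene (1.56), CHODL to SLC6A19 (1.15), and ATP2B2 to RRM2, a subunit of ribonucleotide reductase (1.17). KLF9 was nearest to MMP11 (1.07), and FLYWCH2 second for both MMP11 (1.13) and ZNF467 (0.807), whose nearest gene was RAB37 (0.586). RFX6 was nearest to CFI, complement factor I (1.15), and MYH4 to TXNIP at 2.16, the largest of the nearest distances. Without the Huh7 single-drug tables, 4 of the 10 genes had the same nearest gene: CGA and SLC6A14 with CCL20, CHODL with SLC6A19, and LFNG with LYZ. CCR6 was then nearest to DKK1 (1.31), with CCL20 second (1.32), and the nearest gene was another one for the other 5 genes. The distances rest on values that share DMSO libraries and carry no test.

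The lines held the transcripts of hepatocytes and little of the cell types in which several of these genes are best known. All 9 hepatocyte markers were measured at a mean log2 CPM of 4.74 or more in the authors' deposited tables. Of 7 pituitary and placental markers, 0 reached 2 CPM in any table, the highest having a mean log2 CPM of -1.51. Of 7 skeletal muscle markers, MYOD1 and MYOG were at the floor and 1 reached 2 CPM in each line, CKM in Hep3B and ACTA1 in Huh7. Among 5 leukocyte markers, PTPRC was at 0.482 CPM or less in every table, CD3E was at the floor, and LYZ was at 26.7 CPM or more in every table of the authors' deposit. Of 5 fibroblast markers, 3 reached 2 CPM in each table, and DCN was at the floor. Among 3 measured pancreatic endocrine markers, PDX1 reached 19.3 CPM in Huh7 and the others were near the floor. Of the 9 hepatocyte markers, 7 fell with both drugs in each line in the authors' deposited tables, with list medians of -0.68 in Hep3B and -0.64 in Huh7 against -0.06 and 0.16 over all genes, and their part in the falls described here was not tested. In such bulk libraries, fewer cells of a type and less RNA per cell cannot be told apart.

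At the edge of the choice, the fifth lowest called value of a table and the next one were close. With GW3965 in Hep3B they were RFX6 at -0.928 and LPPR1 at -0.926, and in Huh7 labelled GW3965 CCR6 at -2.26 and TXNIP at -2.19, in the authors' deposited tables. With sorafenib in Hep3B they were EGR1 at -2.86 and SLC6A19 at -2.75, and in Huh7 labelled sorafenib SLC17A8 at -0.963 and HSD11B2 at -0.889. With both drugs they were CCL20 at -3.97 and SGK1 at -3.82 in Hep3B, and CCL20 at -3.28 and LYZ at -3.01 in Huh7, in the authors' deposited tables. RFX6 with GW3965 and CCR6 labelled GW3965 are thus members just inside the edge.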

How the data were processed

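Poly-A RNA-seq of 70 Hep3B and Huh7 libraries was deposited as 6 edgeR comparison tables, 1 for each drug group against DMSO of its line, and values of single libraries were not used here. Per the submitters' processing notes the tool was edgeR and the builds were hg19 and GRCh37. The sources used here do not give the edgeR version, aligner, counting, normalization or kind of test. Per the file headers, the authors deposited a log2 fold change and the mean log2 CPM for each of 32321 transcripts. The authors also deposited a p-value and an FDR, a mark on the representative transcript of each of 20090 gene symbols, and how many libraries had a count above 0. No test was added to those of the authors, as planned for tables of this kind. Adjusting all 32321 p-values of a table by the Benjamini-Hochberg method returned the deposited FDR. Reading the fold as drug over DMSO gave implied DMSO levels whose differences between a line's tables had an SD of at most 0.0150 (log2), against at least 0.339 for the reverse reading.

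A gene was called at an FDR under 0.05 on the representative transcript. Implied levels weight the groups by their number of libraries, and are approximate because the deposited mean includes a small offset. Approximate standard errors, tested on simulated data, are the fold change over the normal score of its p-value and are omitted for p above 0.5. The simulation raised low counts to a minimum and used a fixed dispersion and its own likelihood ratio test. It therefore does not cover the errors given for scarce members. The depth per library is unknown. Members and gene lists were chosen with earlier results of these data known. Named were the 10 members, for each the 2 nearest genes by Euclidean distance, up to 3 called genes per list and direction with partners and paralogs, the genes at the edge of the choice, and ABCG1 and DUSP6. Older symbols were matched through RefSeq synonyms. Alternatives were the FDR threshold, the adjustment, minimum level and fold, median centring, other transcripts and the weights, with 3 added after the data had been seen. Python 3.11.15, pandas 2.3.3, numpy 2.4.6, SciPy 1.17.1 and matplotlib 3.10.9 were used.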

Additional observations from a re-analysis of the deposited data

How the results depend on the processing

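Of 46 alternatives computed for 9 results, 41 left the count or value within 1.5 times. Asking for a fold change of 2 or more as well as the FDR left 0 members called lower with GW3965 in Hep3B, against 4, as the 4 values there lay between -0.99 and -0.30. In the line that did not choose a member, a mean of at least 2 CPM left 5 lower calls, against 9, and 1 higher call, against 4. Leaving out the Huh7 single-drug tables, an alternative chosen after seeing the data, left 2 of those higher calls. The largest disagreement in implied DMSO level between tables of a line was 0.37 (log2), and 0.16 among members at 2 CPM or more in DMSO, also chosen after seeing the data. No paired analysis was possible because the deposited tables hold no values of single libraries, and leaving out replicates was not run for the same reason. Among the 10 members, 4 kept their nearest gene without the Huh7 single-drug tables, also chosen after seeing the data. Depth per library is unknown, so its limit on scarce genes could not be stated.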
